A study of Mus musculus with 4 samples.

Results

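The genes that make small regulatory RNAs and the 4 Argonaute genes were examined in mouse ES cells that carried an RNAi plasmid. The group was set by name: Drosha, Dgcr8, Xpo5, Dicer1, Tarbp2, Prkra, Ago1, Ago2, Ago3 and Ago4, listed in older annotations as Eif2c1 to Eif2c4 for the Argonautes. These 10 genes have 30 features among the 45220 of the array. Cells were E14, a mouse ES cell line, transfected with 1 of 4 plasmids and kept for 2 days in puromycin (1 mg/ml as the labels state it), which began 1 day after transfection. Of these, 1 was pSuper alone, which drives short hairpins from a polymerase III promoter, and 1 encoded a luciferase hairpin. The remaining plasmids encoded Mtf2 hairpin 1 and Mtf2 hairpin 3. All 4 groups thus share the vector, the transfection and the selection. The empty vector and the luciferase hairpin form the control arm and both Mtf2 hairpins the Mtf2 RNAi arm, with 1 array for each plasmid. The spread within an arm therefore includes the difference between its plasmids. The submitters call the 4 transfections independent experiments, and no plasmid was repeated.

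In the small RNA pathway, Drosha and its partner Dgcr8 form the nuclear Microprocessor, which cuts hairpins out of primary microRNA transcripts. Exportin-5, the product of Xpo5, carries the precursor to the cytoplasm, where Dicer1 with its partners Tarbp2 and Prkra cuts it to a duplex, and an Argonaute protein keeps a strand as guide. A hairpin transcribed from pSuper enters this route after the Microprocessor step and draws on exportin-5, Dicer and the Argonautes. ES cells without Dicer1 or Dgcr8 are known to survive but to differentiate poorly.

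The Microprocessor is also known to cut hairpins in the messenger RNA of Dgcr8 itself. The RefSeq microRNA table (GRCm38.p6) places miR-3618 and miR-1306 within Dgcr8 and on its strand, and miR-693 within Xpo5. The mature sequences of the Dgcr8 hairpins are shown because Dgcr8 transcripts that carry them are a known Microprocessor substrate. Capitals mark the seed, bases 2 to 8, and no seed was shared among them.
mmu-miR-3618-5p, chr16:18284602-18284623 (minus strand): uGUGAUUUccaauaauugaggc
mmu-miR-3618-3p, chr16:18284562-18284583 (minus strand): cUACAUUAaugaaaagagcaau
mmu-miR-1306-5p, chr16:18284288-18284310 (minus strand): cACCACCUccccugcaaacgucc
mmu-miR-1306-3p, chr16:18284248-18284268 (minus strand): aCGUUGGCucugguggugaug

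Mtf2 belongs to the Polycomb-like proteins, which bind DNA rich in CpG, so CpG content was counted in the promoters. RefSeq promoter windows (GRCm38.p6) were found for 9 of the 10 genes (Ago1 has 2), without Ago2. In the 250 bases before the start, the 10 windows held 15 to 46 CpG with a median of 30.5, and 60.0% to 85.6% G and C. Over all 32851 windows the medians were 6 CpG and 52.4%, and each of the 10 windows lay above that CpG median. Ago4 had the most CpG and Prkra the fewest. No comparison with other expressed genes was made. The windows of Drosha, Dgcr8, Xpo5 and Prkra are shown, because these genes had a feature above the median level with separate arms and an unadjusted p under 0.1, so the choice used the values given further on. Capitals mark CpG.
Drosha, chr15:12824565-12824814 (plus strand): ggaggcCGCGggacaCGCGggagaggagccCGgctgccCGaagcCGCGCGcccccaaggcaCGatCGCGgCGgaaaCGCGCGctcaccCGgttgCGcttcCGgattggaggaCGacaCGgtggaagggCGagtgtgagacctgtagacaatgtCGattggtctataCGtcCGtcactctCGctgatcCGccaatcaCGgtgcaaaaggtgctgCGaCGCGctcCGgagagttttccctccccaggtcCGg
Dgcr8, chr16:18289169-18289418 (minus strand): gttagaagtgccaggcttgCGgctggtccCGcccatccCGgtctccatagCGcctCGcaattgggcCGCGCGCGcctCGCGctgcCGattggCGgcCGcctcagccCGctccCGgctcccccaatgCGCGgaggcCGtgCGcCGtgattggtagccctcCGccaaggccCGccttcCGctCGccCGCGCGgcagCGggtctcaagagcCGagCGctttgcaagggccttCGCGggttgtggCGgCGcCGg
Xpo5, chr17:46202561-46202810 (plus strand): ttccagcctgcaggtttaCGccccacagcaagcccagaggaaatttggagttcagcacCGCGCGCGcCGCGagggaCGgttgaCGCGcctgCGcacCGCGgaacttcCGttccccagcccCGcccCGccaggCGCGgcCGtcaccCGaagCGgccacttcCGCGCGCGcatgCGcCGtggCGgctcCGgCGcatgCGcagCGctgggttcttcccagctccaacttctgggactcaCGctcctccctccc
Prkra, chr2:76648028-76648277 (minus strand): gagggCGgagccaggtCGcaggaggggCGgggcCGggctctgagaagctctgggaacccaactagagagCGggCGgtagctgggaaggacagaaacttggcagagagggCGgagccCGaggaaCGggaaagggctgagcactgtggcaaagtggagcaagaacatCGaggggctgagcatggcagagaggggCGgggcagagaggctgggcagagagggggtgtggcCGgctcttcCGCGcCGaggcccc
These windows were also searched on both strands for 3 sets of letters, chosen with the results known. CCAAT, known for NF-Y, occurs 4 times in the Dgcr8 window, 3 times in those of Drosha and Tarbp2, 1 time in those of Dicer1 and Ago1, and in 33.8% of all windows. GGGCGG, known for Sp factors, occurs 5 times in the Prkra window, 1 time each in those of Dgcr8 and Xpo5 and in 32.7% of all windows. Among the windows not shown, Ago4 has 5 such matches, Ago3 4, Tarbp2 3, each Ago1 window 2 and Dicer1 1. CCGGAAG, known for Ets factors, occurs 1 time in the Drosha and Ago3 windows and in 6.91% of all windows. All but CCAAT contain CG, so the capitals overlap them. A match describes the letters only.

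The deposited values are intensities on a linear scale, scaled here to a common 75th percentile of 22.98 units and floored at 1 unit before log2. Of the 30 features, 27 passed the filter, and 3 lay at the floor on every array: 2 of 3 for Dgcr8 and 1 of 2 for Prkra. All 3 stand for RIKEN cDNA clones, of which the group has 8, while the 16 features for RefSeq mRNAs and the 6 for MGC cDNA clones all passed. The empty-vector array reads low along an edge: 2447 of its positions had neighbours shifted by over 0.5 log2, against 20 to 41 on the others. Such positions are called defective, and 3 of the 27 features lie there, 1 each for Drosha, Ago2 and Ago4. The arrays correlated with r of 0.976 to 0.979 among the 3 hairpin plasmids and 0.945 to 0.949 with the empty vector. All 10 ES cell markers read above 22.98 units on every array. Of 10 fibroblast and feeder markers, 9 read lower with Mtf2 RNAi, against 8493 of all 16764 genes. Arms were separate for 5 lower and 1 higher, against 19.6% and 16% of all genes. Against the empty vector, 8 of the 10 read lower with the hairpins (9078 of all genes). The empty vector was highest on 7, against 31.5% of all features. The summed level of the 10 was 1078 for the empty vector and 887 for luciferase. Under hairpins 1 and 3 it was 882 and 802, mostly from Vim as in the controls. By the level used for the ES cell markers, 4 of these 10 (Vim, Acta2, Thy1 and Pdgfrb) also read above 22.98 units on every array. Of 6 endoderm markers, 0 did. Among them, Lamb1 read 153.9 units with the luciferase hairpin and 82.2 and 70.6 under hairpins 1 and 3. It read 0.11 with the empty vector, at a defective position. Col3a1, Dcn and Lum read below 2 units throughout, and the part of fibroblasts or feeder cells in the results was not tested.

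Mtf2, the target, read 215.8 (empty vector) and 243.0 (luciferase) units in the control arm on feature 23720, against 105.2 and 112.0 under hairpins 1 and 3. Its difference there was -1.08 (SE 0.21, limma adjusted p = 0.868), the lowest of its 4 features. Features 23882 (-1.02, at a defective position) and 2472 (-0.78) also had both Mtf2 hairpins below both controls, at the same adjusted p. The brightest Mtf2 feature, 321, read 174.8 and 737.2 units in the controls and 501.1 and 335.0 under hairpins 1 and 3. Its arms overlapped, with a difference of 0.19 (SE 0.71, limma adjusted p = 0.954), so the features of the target do not share a direction.

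The main comparison asked which of these genes differ when Mtf2 is targeted. No member feature passed limma's test (0 of 27, smallest adjusted p = 0.868), and none of the 35102 features tested did (0%). An unadjusted p under 0.05 was reached by 3 of the 27, against 4.18% of all features (1467). With 2 arrays against 2, an exact permutation test of a single value cannot go below 0.333. Each difference below is the mean log2 level of the Mtf2 arm less that of the control arm, given with limma's standard error (SE), and each stands at a limma adjusted p of 0.868 or above. Levels of RNA per cell and shares of cells that make it cannot be told apart in such bulk samples.

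No feature of the Microprocessor genes passed the test, and their 3 tested features had differences above 0. Drosha has 2 features. On feature 3897, at a sound position, its level was 74.7 units for the empty vector and 69.1 for luciferase, and 138 and 104 under hairpins 1 and 3. Both Mtf2 arrays lay above both controls, and the difference was 0.74 (SE 0.24, unadjusted p = 0.029). Its brightest feature, 31278, read 810.0, 1829, 1136 and 2293 in the same order. There the arms overlapped, with the luciferase array above hairpin 1. That feature lies in column 83, where neighbours on the empty-vector array read -2.51 log2 from the 4-array median, and its difference was 0.41 (SE 0.55). That value turned to -0.18 without the empty-vector array and to -0.10 without the hairpin 3 array. Dgcr8, the RNA-binding partner of Drosha, read 20.4 and 24.5 units in the controls and 44.8 and 29.2 with hairpins 1 and 3. The arms did not overlap, the difference was 0.69 (SE 0.32), and its 95% interval ran from -0.11 to 1.5. Hairpin 1 gave the larger value for Dgcr8 and for Drosha feature 3897.

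The export factor gene Xpo5 read lower with Mtf2 RNAi on 3 of its 4 features. Its brightest, feature 24215, had 42.8 units under the empty vector and 52.4 under luciferase, against 22.3 under hairpin 1 and 31.8 under hairpin 3. The arms did not overlap, at -0.83 (SE 0.29, 95% interval -1.58 to -0.09), a 1.78-fold lower level. The dim features 28606 and 19850 read -0.97 (SE 0.21) and -0.60 (SE 0.29), both with separate arms. In the Mtf2 arm feature 28606 read under 1 unit on both arrays, and the floor there sets how large its difference can be. Feature 27382 went against them. It read 21.6, 21.0, 25.4 and 19.9 units, with overlapping arms and a difference of 0.08 (SE 0.27). It lies at a sound position, as do all 4.

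The Dicer group did not move together. For Dicer1, feature 33499 read 28.2 and 22.8 units in the controls and 29.0 and 35.9 with hairpins 1 and 3. Its arms were separate by a narrow gap, at 0.35 (SE 0.27). Feature 24537 had separate arms in the opposite direction. It read 28.4 and 29.6 units in the controls and 14.5 and 26.1 with hairpins 1 and 3, at -0.57 (SE 0.36), mostly from hairpin 1. Tarbp2, the double-stranded RNA binding partner of Dicer, read 99.96, 73.4, 87.6 and 85.8 units. Both Mtf2 arrays lay between the controls, the difference was 0.02 (SE 0.25), and its interval of -0.62 to 0.66 leaves room for changes either way. Prkra, also known as an activator of the kinase PKR, read 57.8 and 47.3 units in the controls and 36.5 and 37.0 in the Mtf2 arm. These arms were separate, at -0.51 (SE 0.24, 95% interval -1.12 to 0.10), and both Mtf2 hairpins gave nearly the same value.

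**Figure D1:**
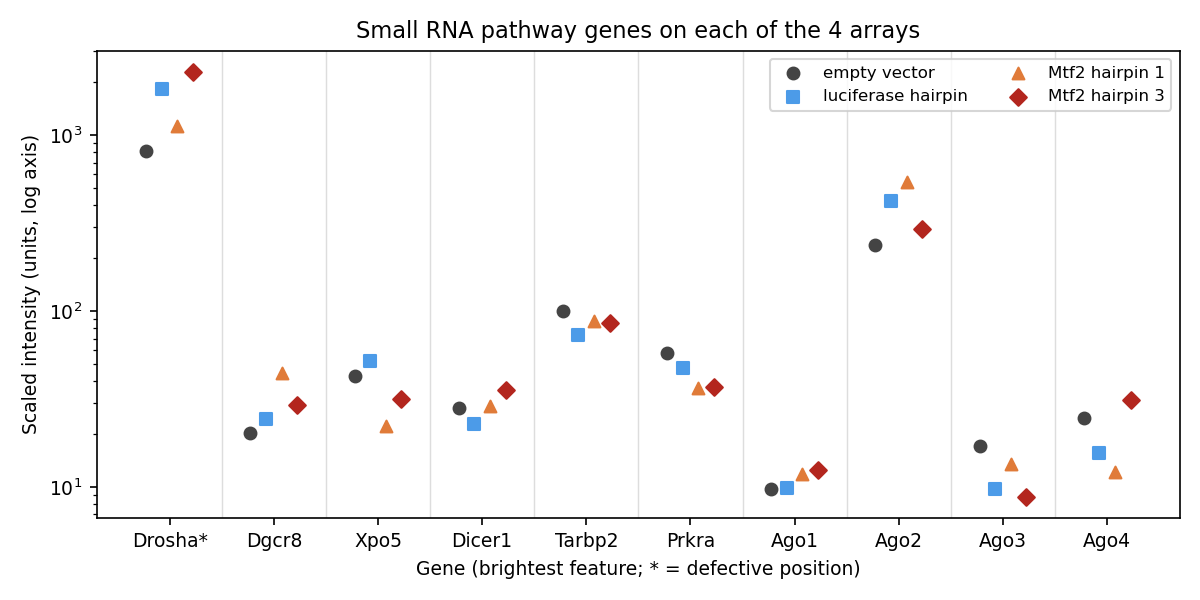
Scaled intensity on a log axis for the brightest feature of each of the 10 genes, with a point for each of the 4 arrays. Xpo5 and Prkra have both Mtf2 hairpin points below both control points, Dgcr8, Dicer1 and Ago1 have them above, and for the other genes the arms overlap.

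The Argonaute genes showed no common direction. Ago1, Ago3 and Ago4 are consecutive protein-coding genes on chromosome 4, in the order Ago3, Ago1, Ago4, and Ago2, known for cutting matched targets, lies on chromosome 15. Ago1 on its brightest feature, 2098, read 9.76 and 9.84 units in the controls and 11.8 and 12.5 in the Mtf2 arm. The arms were separate and the values close together, at 0.31 (SE 0.30). Its dimmer features 16720 and 25406 read -0.88 (SE 0.65) and -0.43 (SE 0.45), and on both the empty vector was highest. Ago2 on its brightest feature, 12974, read 238 and 426 units in the controls and 544 and 295 with hairpins 1 and 3. The arms overlapped, and the difference of 0.33 (SE 0.44) was smaller than the gaps of 0.84 within the controls and 0.88 within the Mtf2 arm. Feature 9937 of Ago2 read -0.29 (SE 0.44). The dimmer Ago2 features 22863 and 21420 read 1.18 (SE 0.59, separate arms, at a sound position) and 1.76 (SE 1.18, overlapping arms, at a defective position), both with the empty vector below the floor. The mean over the 4 Ago2 features gave 0.75 (limma adjusted p = 0.881). That value comes mostly from features 22863 and 21420, where the floor sets the empty-vector level.

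Ago3 on its brightest feature, 7198, read 17.2 and 9.71 units in the controls and 13.6 and 8.84 with hairpins 1 and 3, at -0.24 (SE 0.43). The arms overlapped, as they did for Ago4. Ago4 on feature 31337 read 24.7 and 15.6 units in the controls and 12.25 and 31.5 with hairpins 1 and 3. Its difference of 0.002 (SE 0.54) is the mean of values on both sides, since the Mtf2 hairpins differed by 1.36 log2. The other 3 features of Ago3 ranged from -0.22 to 0.77 and the other 4 of Ago4 from -0.15 to 0.68, all below 10 units on every array.

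Arms were separate on 12 of the 27 member features, 6 higher and 6 lower, against 35.6% of all features tested (16.2% higher and 19.4% lower). Separation was read from scaled values before the floor, whatever the size of the gap. Ago3 feature 5887 counts with 1.35 and 1.46 units in the controls against 1.32 and 1.16 under hairpins 1 and 3. Over brightest features they were separate for 5 of the 10 genes, 3 higher and 2 lower, against 35.6% of 16764 genes. The median difference of the 10 genes was 0.16, with 7 higher and 3 lower. That of all 16764 genes was -0.007, with 8271 higher. The 7 include Tarbp2 at 0.02, Ago4 at 0.002 and Drosha on its feature at a defective position. Over all 27 features the median was 0.02.

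Features of 1 gene often disagreed. Of the 7 genes with more than 1 tested feature, 6 had features of both signs, and Drosha was the exception. Among 3004 genes with at least 2 features above the median level at sound positions, the 2 brightest had the same sign in 50.6% (1520 genes), with a median gap of 0.37 log2 and Pearson r = 0.04. These points share the 4 arrays, so the value is a description. The gap was 0.91 for Xpo5 and 0.92 for Dicer1, above that of 89.2% and 89.6% of these genes, and 0.62 for Ago2.

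**Figure D2:**
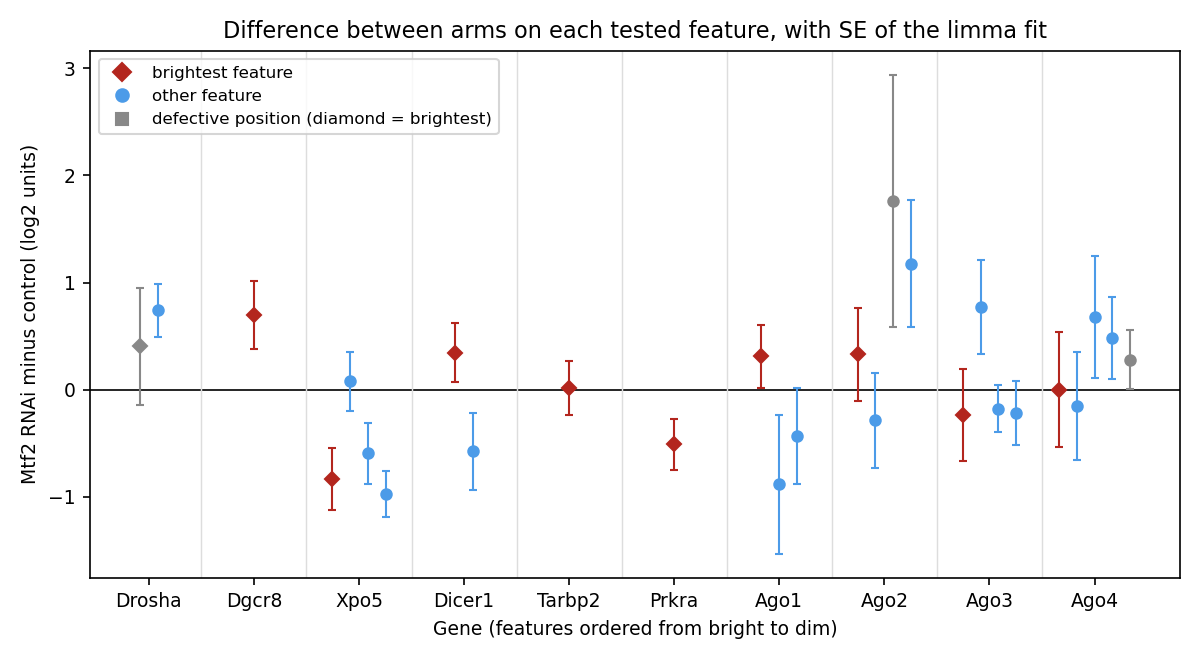
Difference between the Mtf2 RNAi and control arms in log2 units for each of the 27 tested features, with the SE of the limma fit as bars. Red marks the brightest feature of a gene, blue another feature and grey a defective position. Features of Xpo5, Dicer1 and each Argonaute gene fall on both sides of 0.

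The second comparison asked whether plasmids that encode a hairpin differ from the vector without one, since an expressed hairpin uses this pathway. It sets 3 arrays against 1, so the lone empty-vector array is assumed to vary like the others, and an exact permutation test cannot go below 0.25. That array had 2447 defective positions and r of 0.945 to 0.949 with the hairpin arrays, which had 0.976 to 0.979 among themselves. The lack of a hairpin and the state of that array therefore cannot be told apart here. It shares all 4 arrays with the main comparison. The features called in the fit with all positions, given next, lie at sound positions as well as defective ones. Limma called 590 of 35102 features (1.68%), 421 higher (1.2%) and 169 lower (0.481%) with the hairpins. When defective positions were left out and the rest fitted again, it called 0, with a smallest adjusted p of 0.0836 and 3537 features at an unadjusted p under 0.05.

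Ago2 feature 21420 was the 1 member feature called, of 27. It read 0.42 units with the empty vector, below the floor, and 12.1, 10.2 and 13.7 with the luciferase hairpin and Mtf2 hairpins 1 and 3. The fitted difference was 3.57 log2 (SE 0.29, limma adjusted p = 0.048). It lies in column 85, and its neighbours on the empty-vector array read -2.60 log2 from the 4-array median, so no fold is given for it. The call was lost without scaling (adjusted p = 0.0517), with quantile normalization (0.0516) and without the luciferase, hairpin 1 or hairpin 3 array (0 member features called in each). Ago2 feature 22863, in column 83, gave 0.26 units for the empty vector, 3.04 for luciferase, and 3.48 and 4.47 under hairpins 1 and 3. Its difference of 1.85 (SE 0.31) had an adjusted p of 0.135, and its neighbours read -0.02. The brighter Ago2 features opposed each other, with the empty vector lowest on 12974 (0.78, SE 0.42) and highest on 9937 (-0.69, SE 0.46).

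An unadjusted p under 0.05 was reached by 6 of the 27 member features, against 12.9% of all features. These were 2 features each of Ago1, Ago2 and Ago3, none of them the brightest of its gene and all below 15 units on every array.

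For the other genes no feature passed the adjusted test. Drosha read 1.05 (SE 0.50) on the defective feature 31278 and 0.42 (SE 0.47) on feature 3897, where the luciferase hairpin read below the empty vector. Dgcr8 was above the empty vector by 0.26 for luciferase and by 1.14 and 0.52 for hairpins 1 and 3, a mean of 0.64 (SE 0.43). Prkra read -0.29, -0.66 and -0.64 (mean -0.53, SE 0.23), with the empty vector highest. Xpo5 on feature 24215 was split, at 0.29 for luciferase and at -0.94 and -0.43 for hairpins 1 and 3. Tarbp2 read -0.29 (SE 0.17), Dicer1 feature 33499 0.03 (SE 0.33) and Dicer1 feature 24537 -0.34 (SE 0.52). Among the Argonautes, Ago3 feature 7198 read -0.71 (SE 0.35) and Ago1 feature 2098 0.22 (SE 0.26). The dim Ago3 feature 39388, at a sound position, went the other way, at 1.27 (SE 0.19, limma adjusted p = 0.119). Its empty vector read 0.93 units, below the floor. Ago3 features 32535 and 5887 read -0.60 (SE 0.15) and -0.04 (SE 0.17). Ago4 feature 31337 read -0.45 (SE 0.66), and the other Ago4 features read 0.24 to 0.82. Ago1 feature 16720 had 6.68 units with the empty vector against 1.52 to 2.87 with the hairpins (-1.65, SE 0.46, adjusted p = 0.313). On Ago1 feature 25406 the empty vector was also highest, at -1.07 (SE 0.20, limma adjusted p = 0.165).

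The empty vector lay outside the range of the hairpin arrays on 19 of the 27 features, against 54% of all features. It was lowest on 11 (22.5% of all) and highest on 8 (31.5% of all). These counts also use scaled values before the floor, so order below 1 unit enters them. On Ago4 feature 9176 the empty vector (-0.09 units) and hairpin 1 (0.56) both lay below the floor. At sound positions it was lowest on 8 of 24 and highest on 8, against 19.6% and 32.8%. Differences of at least 1 log2 from the empty vector were seen at sound positions on 3 features above and 2 below with the luciferase hairpin (2.99% and 4.32% of all). With Mtf2 hairpin 1 there were 6 above and 4 below (4.34% and 6.32%), and with hairpin 3 there were 2 above and 1 below (3.9% and 5.24%). Except for Ago2 features 12974 and 9937, Dgcr8 feature 32649 and Ago4 feature 31337, those features stood below 10 units on every array. The counts of the 3 hairpins share 1 empty-vector array and are not independent. Ago2 feature 22863 and Ago3 feature 39388 were above with each hairpin, and on both the empty vector read below the floor. Ago1 feature 16720 was below with each hairpin.

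**Figure D3:**
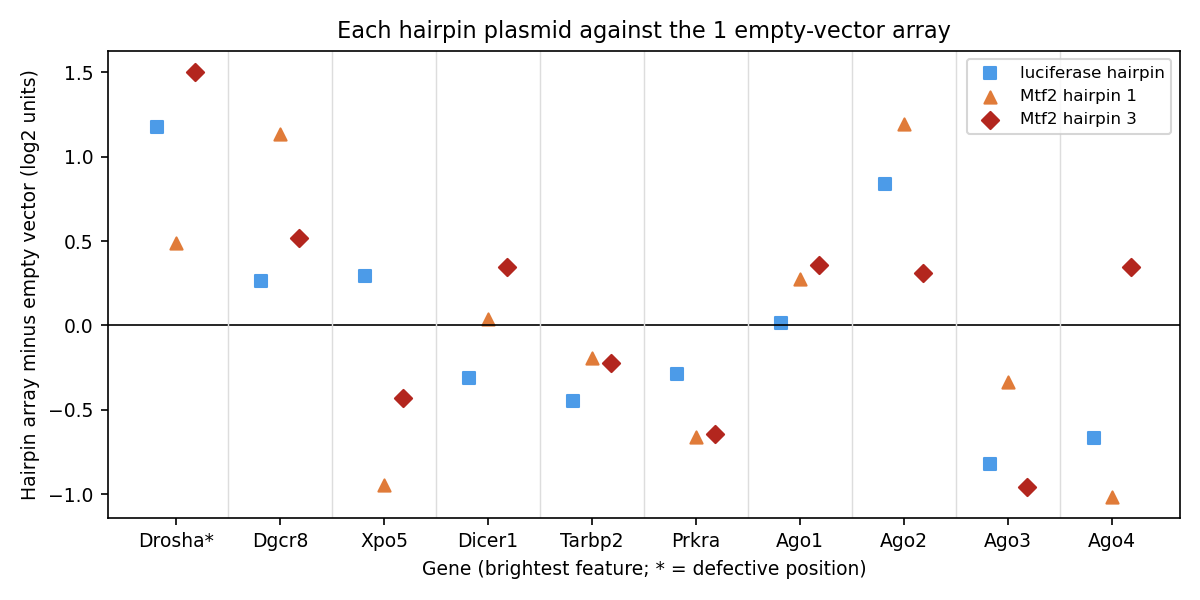
Difference of each hairpin array from the 1 empty-vector array in log2 units, for the brightest feature of each gene. All 3 hairpins lie above 0 for Drosha (at a defective position), Dgcr8, Ago1 and Ago2, below 0 for Tarbp2, Prkra and Ago3, and on both sides for Xpo5, Dicer1 and Ago4.

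The wider pathway was described with 8 lists, of which 50 genes were tested. Limma called 0 of them in the main comparison (0% of all genes) and 0 against the empty vector (1.75% of all genes). In the main comparison 26 of the 50 lay above 0 and 24 below, and their median was 0.04. Arms were separate for 11 higher and 10 lower, against 16% and 19.6% of all genes.

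Partners of the Microprocessor read higher for 4 of 6 genes (median 0.29). The helicase gene Ddx5 read 1484 and 1314 units in the controls and 1691 and 2334 in the Mtf2 arm (0.51, SE 0.30), while its relative Ddx17 read -0.30 (SE 0.30). Srrt, which links the cap-binding complex to the Microprocessor, read 0.35 (SE 0.26). Of 4 genes for nuclear export, Ran, the GTPase that exportin-5 needs, read 0.33 (SE 0.37), Rcc1, which loads Ran with GTP, 0.25 (SE 0.40), and Xpo1, exportin-1, -0.23 (SE 0.22). Among chaperones that help to load Argonaute, 3 of 6 were higher (median 0.006). The co-chaperone gene Fkbp4 read 51.6 units for the empty vector and 194 for luciferase, and 333 and 263 in the Mtf2 arm (1.56, SE 0.64). Its arms were separate with the empty vector far below the rest, in column 81, where neighbours read -0.38 log2. Ptges3 read -0.19 (SE 0.25) and Hsp90aa1 -0.23 (SE 0.32), and Tsn and Tsnax, which form the C3PO nuclease, -0.56 (SE 0.29) and -0.03 (SE 0.30).

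Silencing effectors split 10 higher and 8 lower (median 0.04). The deadenylase subunits differed in direction. Pan3 read 143 and 129 units in the controls and 65.6 and 96.1 with hairpins 1 and 3 (-0.77, SE 0.27), and Pan2 read 43.9 and 41.4 against 107 and 53.4 (0.82, SE 0.38). Both had separate arms. The decapping scaffold gene Edc4 read -1.28 (SE 0.56), with controls at 144 and 360 units and hairpins 1 and 3 at 133 and 66.2. Its gap was 1.32 log2 within the controls and 1.01 within the Mtf2 arm. Regulators of precursors split 3 higher and 2 lower. Lin28a, the let-7 precursor binding protein of ES cells, read -0.76 (SE 0.52) with the empty vector at 20.5 units and the others at 6.75 to 8.83. Lin28b read -0.22 (SE 0.27) and Dis3l2, at a defective position, 1.04 (SE 0.96). Of 7 genes for double-stranded RNA binding proteins 3 were higher (median -0.21), with Stau1, at a defective position, at -0.44 (SE 0.27), Ilf2 at -0.36 (SE 0.27) and Dhx9 at 0.33 (SE 0.32). Of the Piwi genes, Piwil2 read -0.23 (SE 0.27) and Piwil1 was near the floor on every array.

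**Figure D4:**
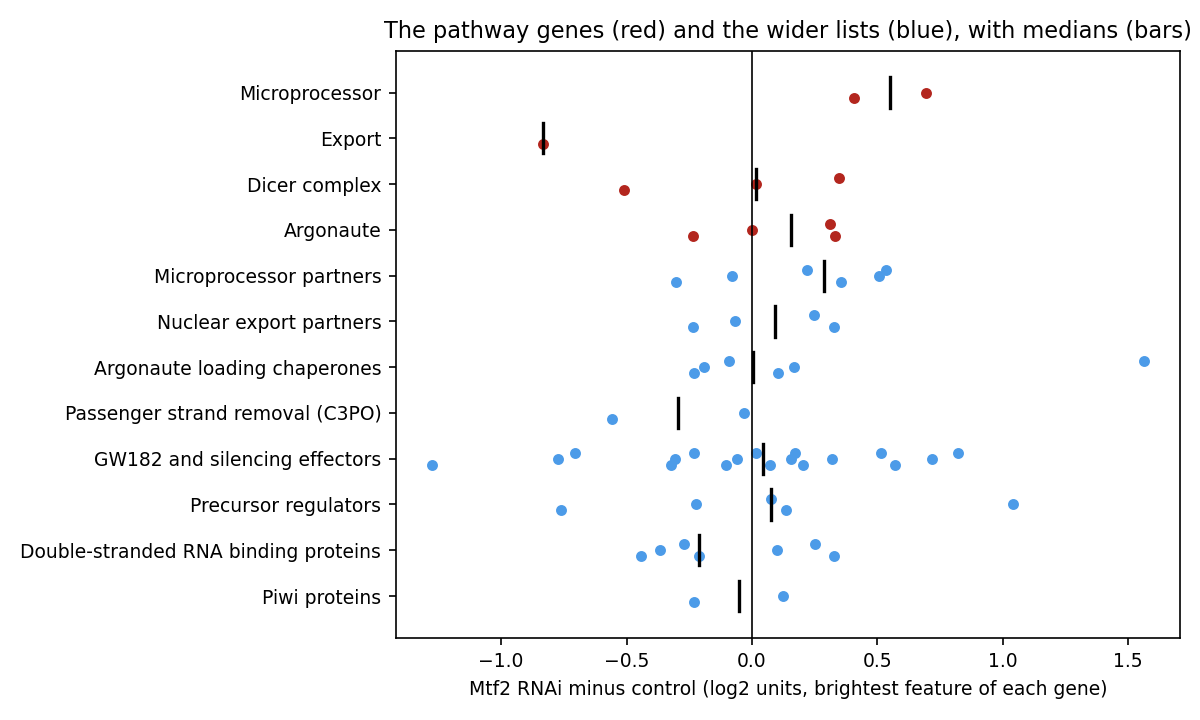
Difference between the Mtf2 RNAi and control arms in log2 units for each gene by its brightest feature, with the 10 pathway genes in red by role, the wider lists in blue and a bar at each median. The Microprocessor genes lie above 0, Xpo5 lies at -0.83, and the wider lists centre between -0.29 and 0.29. The Drosha point is its feature at a defective position, where the arms overlap.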

How the data were processed

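Total RNA of 4 transfected cultures was labelled with Cy3, starting from 1 ug each (Agilent Quick-Amp), per the labels' protocols, and hybridised to 1-colour arrays. The deposited values are linear intensities, down to -1.8. How they were normalized is not given in the sources used here. Arrays were brought to the same 75th percentile, floored at 1 unit and log2 transformed. The 10118 features at the floor on all 4 arrays (22.4%) were left out, leaving 35102. Names came from the 2016 platform annotation (33653 features with 1 symbol, 56 with several, 11511 unlisted), and the brightest feature stands for its gene. Positions follow a layout of 532 rows by 85 columns inferred from neighbour correlations. A position is defective where bright neighbours in a 7 by 7 square deviated by over 0.5 log2 (median) on any array.

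Limma 3.58.1 in R 4.3.3 (intensity trend) was used for both comparisons, with Benjamini-Hochberg adjustment over all features tested and a threshold of 0.05. The fit was also run on simulated arrays with independent normal errors. Those hold no edge defect, so that run does not cover the state of the empty-vector array. Named genes are the members, Mtf2, and up to 3 of each list by smallest unadjusted p. Members and lists were chosen with earlier results of these data known. Alternatives covered scaling, floor, filter, trend, defective positions, each array left out and the mean over features. The number of arrays limits precision, and p-values cover only the spread between these arrays.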

Additional observations from a re-analysis of the deposited data

How the results depend on the processing

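In the main comparison the count of features called stayed at 0 under every alternative but the fit with no filter, which called 36 features, among them 1 member, Xpo5 feature 28606 (adjusted p = 0.0399). The hairpin comparison called 965 features with log2(value + 5), 1453 with no filter and 0 without defective positions, and 0 to 0 when any hairpin array was left out. The split of these calls also moved, from 421 higher and 169 lower to 400 and 1053 with no filter, 883 and 82 with log2(value + 5), 777 and 36 among features above the median level, and 404 and 20 with no trend. Its 1 member call became 0 without scaling, with quantile normalization, with no filter and without defective positions, and 0 to 0 when an array was left out. With a floor of 4 units the member called was Ago1 feature 16720 in place of Ago2 feature 21420. Among member values under alternatives that keep all arrays, 171 kept direction and side of the threshold and 9 changed sign. Quantile normalization gave Tarbp2 -0.0088 and Ago4 -0.018 for Mtf2 RNAi, and Dicer1 -0.029 for the hairpins. The mean over features gave Dicer1 -0.11, Ago1 -0.33 and Ago3 0.035 for Mtf2 RNAi, and Dicer1 -0.16, Ago1 -0.83 and Ago4 0.39 for the hairpins. The cause of these changes was not tested, beyond the features that enter each mean. With each array left out in turn, 10 of 70 values changed sign. For Mtf2 RNAi the values ran from -0.18 to 0.99 for Drosha, -0.11 to 0.77 for Ago2, -0.65 to 0.18 for Ago3, -0.68 to 0.68 for Ago4 and -0.21 to 0.24 for Tarbp2. For the hairpins Dicer1 ran from -0.14 to 0.19. Dgcr8 (0.38 to 1.00), Xpo5 (-1.09 to -0.58), Prkra (-0.65 to -0.36), Dicer1 (0.19 to 0.50) and Ago1 (0.27 to 0.35) kept their sign for Mtf2 RNAi. An arm left with 1 array is assumed to vary like the other. No paired analysis was possible because the labels give no replicate numbers that the arms share.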

Other observations

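The annotation also names transcripts that host microRNAs, and their features were chosen after the member values were seen. Mirg, the imprinted host of a large microRNA cluster, had 27.2 units for the empty vector and 33.4 for luciferase, and 22.4 and 18.7 under hairpins 1 and 3. Both Mtf2 arrays lay below both controls, at -0.56 (SE 0.27, limma adjusted p = 0.868). Mir22hg read 15.4 and 18.1 units in the controls and 17.1 and 17.7 in the Mtf2 arm. Mir9-3hg read 7.04 and 10.4 in the controls and 12.5 and 6.27 with hairpins 1 and 3, with overlapping arms. The features of Mir99ahg, Mir124-2hg and Mir124a-1hg read at most 1.12 units on every array. These features measure host transcripts and not mature microRNAs.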
